A study of Rattus norvegicus with 6 samples.

Results

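Transcripts of Fgf2 and Cdh2 were followed in mesenchymal stromal cells of rat bone marrow (BMMSCs), the adherent femoral marrow cells from which osteoblasts can be grown. Each gene was read by a single probe of an Agilent array, A_44_P212850 for Fgf2 and A_44_P349475 for Cdh2. The probes were chosen by their names, with earlier results of these data known. These 2 are part of 38804 probes that are not controls. Their accessions match Fgf2 and Cdh2 in the RefSeq gene table (assembly GRCr8), where Fgf2 shares part of its span with Nudt6 and Cdh2 overlaps no other gene. Which exon or strand either probe reads is not stated in the files or tables used.

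Donors of the cells were Wistar rats as normal controls and GK rats, the strain that stands for type 2 diabetes in this series, with 3 samples in each group and 1 array for each sample. No transgene, drug or deletion is named for either group, and all 6 samples had spent 7 days in osteogenic induction medium, so the effect of induction itself was not measured. Diabetes and the other differences between the strains cannot be told apart. The labels call the samples of a group replicates without saying whether they are separate animals, and the p-values then measure only the spread between these samples, which may be technical.

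Fgf2, or basic fibroblast growth factor, is a secreted ligand that binds FGF receptors together with heparan sulfate and signals through the MAP kinase cascade. In bone it is known to promote the growth of stromal cells and osteoblast precursors. Cdh2 encodes N-cadherin, a transmembrane adhesion protein that joins neighbouring cells through calcium-dependent contacts and is tied to actin by catenins. N-cadherin is carried by stromal cells and by osteoblasts. These sentences are background and not a result of the arrays.

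All 60 spots of each probe, 10 per array, were well above background and none was saturated. For each probe 1 spot was left out as an outlier. Depending on the array, 65.1% to 77.3% of all probes were well above background, and the 75th percentile used for scaling was a processed signal of 171.6 to 234.8. Precision is limited by how few arrays there are. GK replicate 3 stood apart from its group. Across 27595 probes it correlated with GK replicates 1 and 2 at 0.948 and 0.962, whereas those correlated with each other at 0.982, and with Wistar replicate 3 it correlated at 0.971. GK replicate 1 correlated with the Wistar arrays at 0.944 to 0.959. The Wistar arrays and GK replicate 1 were scanned as one image, taken here as slide 1, and GK replicates 2 and 3 as another, slide 2.

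The mean Fgf2 level was 1.68-fold higher in GK than in Wistar cells, and the mean Cdh2 level was 1.39-fold higher in Wistar than in GK cells. Neither difference passed the test. In both genes GK replicates 1 and 2 lay outside the range of the Wistar arrays, on the high side for Fgf2 and on the low side for Cdh2, and GK replicate 3 lay within it. The GK arrays spanned 0.98 on the log2 scale for Fgf2 and 0.88 for Cdh2, more than the difference between the groups in either gene.

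Fgf2, the ligand, had median processed signals, on the scanner's linear scale, of 118 in GK replicate 1, 110 in GK replicate 2 and 81.8 in GK replicate 3. The Wistar arrays read 63.7, 80.7 and 41.0 for replicates 1 to 3. Before any scaling the lowest GK array, GK replicate 3, thus stood just above the highest Wistar array, Wistar replicate 2. GK replicate 3 was also the brightest array, with a 75th percentile of 234.8 against 193.6 in Wistar replicate 2. How many probes separated the groups before scaling was not counted, and after scaling 18.4% of the tested probes did. By array, the median spot brightness was 3.69 to 9.02 times the median local background, with the lowest value in Wistar replicate 3.

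After scaling, the level was the log2 signal minus the array's 75th percentile. Fgf2 was at -0.53, -0.82 and -1.51 in GK replicates 1 to 3. In Wistar replicates 1 to 3 it was at -1.77, -1.26 and -2.09. The groups overlapped, because GK replicate 3 fell below Wistar replicate 2, and a GK array was above a Wistar array in 8 of 9 pairs. The mean was -0.96 ± 0.50 (SD, n = 3) over the GK arrays and -1.71 ± 0.42 (SD, n = 3) over the Wistar arrays. The log2 difference was 0.75 (standard error 0.33, 95% interval -0.04 to 1.54), which is a fold between 0.974 and 2.91. It had an unadjusted p of 0.0591 and a Benjamini-Hochberg adjusted p of 0.415 in limma, fitted over 27920 probes. A two-sided exact permutation test of the difference between the means gave p = 0.2, where the design with 3 against 3 samples cannot go below 0.1.

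Cdh2, the adhesion receptor, had median processed signals of 93.1, 107 and 236 in GK replicates 1 to 3. In Wistar replicates 1 to 3 the signals were 243, 152 and 164. GK replicates 1 and 2 were the dimmest arrays for this probe, and GK replicate 3 was second to Wistar replicate 1. By array, its median spot brightness was 6.69 to 16.7 times the median local background.

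On the scaled log2 level, Cdh2 was at -0.86, -0.85 and 0.02 in GK replicates 1 to 3. It was at 0.18, -0.32 and -0.11 in Wistar replicates 1 to 3. GK replicates 1 and 2 differed by only 0.02 from each other, and GK replicate 3 was above Wistar replicates 2 and 3. A GK array was below a Wistar array in 7 of 9 pairs. The mean was -0.56 ± 0.50 (SD, n = 3) over the GK arrays and -0.09 ± 0.25 (SD, n = 3) over the Wistar arrays. The log2 difference was -0.48 (standard error 0.30, 95% interval -1.19 to 0.23), so the interval runs from 2.27-fold higher in Wistar to 1.17-fold higher in GK cells. In limma its unadjusted p was 0.154 and its adjusted p was 0.567. The two-sided exact permutation test gave p = 0.3.

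**Figure D1:**
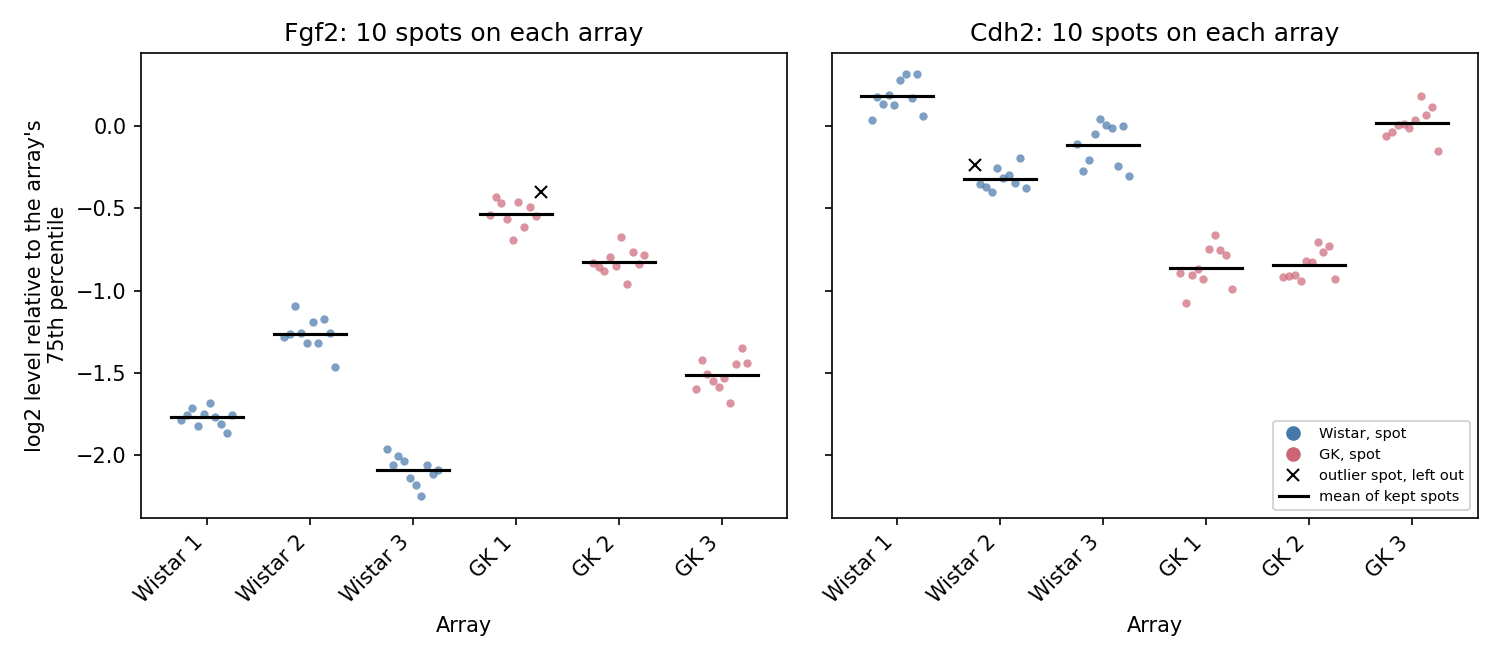
Scaled log2 level, with the 75th percentile of each array at 0 (vertical axis), of the 10 spots of Fgf2 (left) and Cdh2 (right) on each of the 6 arrays, with Wistar in blue, GK in red, left-out outlier spots as crosses and the mean of the kept spots as a line. GK 1 and GK 2 lie above all Wistar arrays for Fgf2 (-0.53 and -0.82) and below them for Cdh2 (-0.86 and -0.85), while GK 3 lies among the Wistar arrays in both panels (-1.51 and 0.02).

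The 10 spots of a probe gave the error between spots within an array, which leaves out differences between arrays in labelling and hybridisation. The SD between the spots of an array was 0.05 to 0.10 on the log2 scale for Fgf2 and 0.07 to 0.13 for Cdh2, which is a coefficient of variation of 3.62% to 6.89% and of 4.64% to 8.97% in the linear signal. The SD between the arrays of a group was 0.50 (GK) and 0.42 (Wistar) for Fgf2, and 0.50 (GK) and 0.25 (Wistar) for Cdh2. The spots of a probe sit at the same 10 positions on every array. At the 9 positions whose spots were kept on all 6 arrays, the GK mean minus the Wistar mean of Fgf2 was between 0.65 and 0.83. For Cdh2 it was between -0.56 and -0.34, also at 9 positions. These spots share their RNA and are no replicates of the groups.

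Ordered from low to high, the Fgf2 level ran from Wistar replicate 3 over Wistar replicate 1, GK replicate 3, Wistar replicate 2 and GK replicate 2 to GK replicate 1. The spots of neighbouring arrays overlapped between GK replicate 3 and Wistar replicate 2, which were 0.25 apart, and between GK replicates 2 and 1, which were 0.29 apart. For Cdh2 the order was GK replicate 1, GK replicate 2, Wistar replicate 2, Wistar replicate 3, GK replicate 3 and Wistar replicate 1. There the spots of every neighbouring pair overlapped except GK replicate 2 and Wistar replicate 2, which were 0.52 apart. These orders were the same with the array median, quantile normalisation or normexp background correction in place of the 75th percentile.

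Both differences were larger without GK replicate 3. That had to follow, because this array was the lowest GK array for Fgf2 and the highest for Cdh2. The values without this array are thus no separate support. Fgf2 then differed by 1.03 (standard error 0.30, 95% interval 0.30 to 1.76), with an unadjusted p of 0.0135 and an adjusted p of 0.168 in limma. Cdh2 differed by -0.77 (standard error 0.24, 95% interval -1.34 to -0.19), with an unadjusted p of 0.0168 and an adjusted p of 0.186 in limma. Neither passed after adjustment. Without GK replicate 1 both differences were smaller than with all arrays. Fgf2 then differed by 0.54 (standard error 0.34, 95% interval -0.32 to 1.40). Cdh2 differed by -0.33 (standard error 0.32, 95% interval -1.14 to 0.48). Each of these intervals spans both directions. The size of the differences depended on which array was left out, among the Wistar arrays too. Without Wistar replicate 1, 2 or 3, Fgf2 differed by 0.72, 0.97 and 0.56, and Cdh2 by -0.34, -0.60 and -0.49.

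Within slide 1 the comparison sets GK replicate 1 alone against the 3 Wistar arrays, and it assumes that the single array varies as they do. Fgf2 differed there by 1.17 (limma adjusted p = 0.295) and Cdh2 by -0.77 (limma adjusted p = 0.342). Slide 2 holds GK arrays only and gives no comparison. On it, GK replicates 2 and 3 were 0.69 apart in Fgf2 and 0.86 apart in Cdh2, against differences of 0.75 and -0.48 between the groups.

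**Figure D2:**
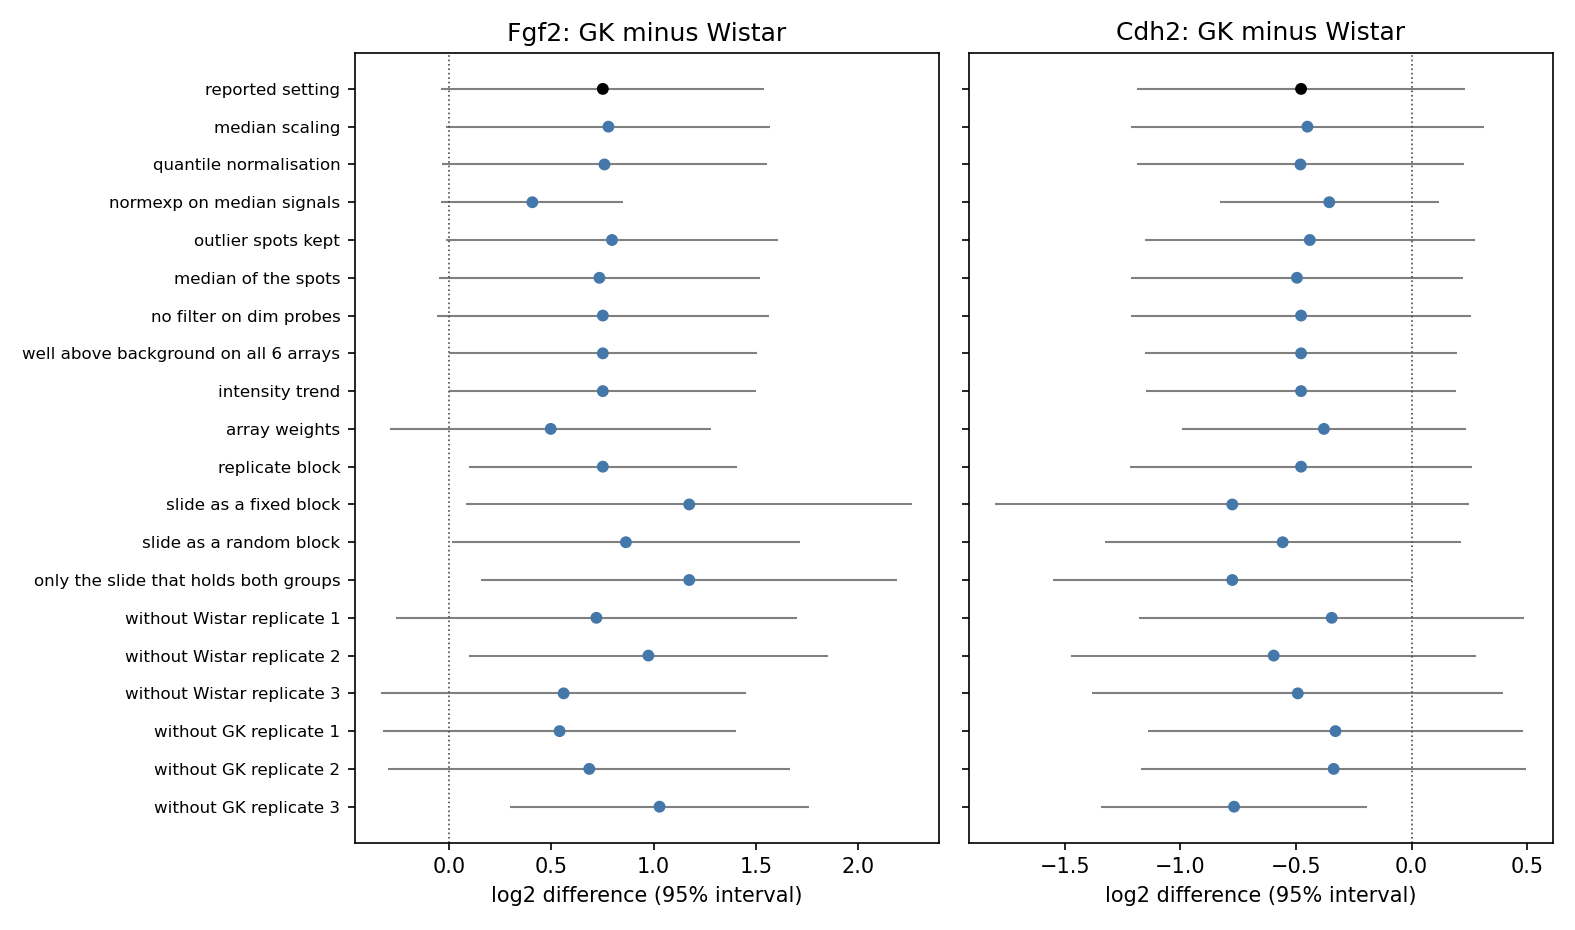
Log2 difference, GK minus Wistar, of Fgf2 (left) and Cdh2 (right) with its 95% interval (horizontal axis) for the reported setting (black) and 19 alternatives (blue, 1 row each). Fgf2 lies between 0.41 and 1.17 and Cdh2 between -0.77 and -0.33, and no adjusted p was under 0.05.

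The sign of the Fgf2 difference was opposite to that of Cdh2, and their difference within an array is free of any scaling by 1 constant per array. The Fgf2 level minus the Cdh2 level was 0.33, 0.02 and -1.53 in GK replicates 1 to 3. It was -1.95, -0.94 and -1.98 in Wistar replicates 1 to 3. GK replicate 3 again lay between Wistar arrays. Its mean was -0.39 ± 0.99 (SD, n = 3) over the GK arrays and -1.62 ± 0.59 (SD, n = 3) over the Wistar arrays, 1.23 apart. The gap was 1.24 with quantile normalisation and 0.76 with normexp background correction. Only the change between arrays can be read from these values, since the probes differ in their binding. No test was made because the pair was chosen with earlier results known. The p-values given for each gene above carry the same limit.

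Among all probes tested, 0.358% were called at an adjusted p under 0.05, 0.197% higher and 0.161% lower in GK cells, and Fgf2 and Cdh2 were not among them. An unadjusted p under 0.05 was reached by 12.6% of the tested probes, and neither Fgf2 nor Cdh2 was one of these. Of the tested probes, 14.2% had an unadjusted p as small as that of Fgf2 or smaller, and 27.2% had one as small as that of Cdh2. An absolute difference as large as that of Fgf2 was found in 13.1% of the tested probes, and one as large as that of Cdh2 in 26.0%. Neither difference thus stood far out from the rest of the array.

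The largest unadjusted p among the called probes was 0.000178. At that p and with its own standard error, Fgf2 would have needed a log2 difference of 2.43, or 5.40-fold, and Cdh2 one of 2.18, or 4.54-fold. The measured differences of 0.75 and -0.48 were well short of these sizes. The spread of both genes among the GK arrays, an SD of 0.50, was wider than the median of 0.35 over the tested probes, and 27.8% of these had an SD at least as large. Among Wistar arrays 23.5% of the tested probes were at least as variable as Fgf2 and 49.0% as variable as Cdh2, where the median SD was 0.25.

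The other genes of the FGF and cadherin pathways could not be set beside these values. Of 84 genes in 7 lists (FGF ligands, receptors, adaptors and kinases, and feedback targets, classical cadherins, catenins and junction partners, and osteoblast differentiation), 3 had a probe with a name. These were Fgf2, Cdh2 and Enpp1, an ectoenzyme that produces pyrophosphate, and 0 of the 3 passed the test in either direction. Enpp1 was at 5.38, 5.26 and 2.68 in GK replicates 1 to 3 and at 3.60, 3.51 and 2.58 in Wistar replicates 1 to 3. As in Fgf2, GK replicates 1 and 2 were above all Wistar arrays and GK replicate 3 was not. Its log2 difference was 1.21 (standard error 0.74, limma adjusted p = 0.556). Of 38 marker genes of stromal, haematopoietic, endothelial, adipocyte, osteoblast, neural and epithelial cells, Cdh2 and the neuronal gene Map2 had a named probe. Map2 reached that level of signal on 2 arrays of 6, too few for the test. The labelled cell type was thus not checked. All 6 arrays detected Cdh2, but osteoblasts carry it too. The part of other cell types in these values was not tested. In RNA of whole cultures, fewer cells with a transcript cannot be told apart from less transcript per cell.

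Accessions paired 30 probes of the array with a gene, Fgf2 and Cdh2 included, and 24 of them were tested. Of the 24, the GK mean exceeded the Wistar mean in 18 and was below it in 6 (over all tested probes it was higher in 49.6%), with Fgf2 the fourth from the top and Cdh2 the third from the bottom. In limma 0 of the 24 passed at an adjusted p under 0.05 (0.358% over all tested probes), and 1 had an unadjusted p under 0.05 (12.6% over all). That was the long noncoding RNA gene LOC108352165, with a log2 difference of 0.89.

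**Figure D3:**
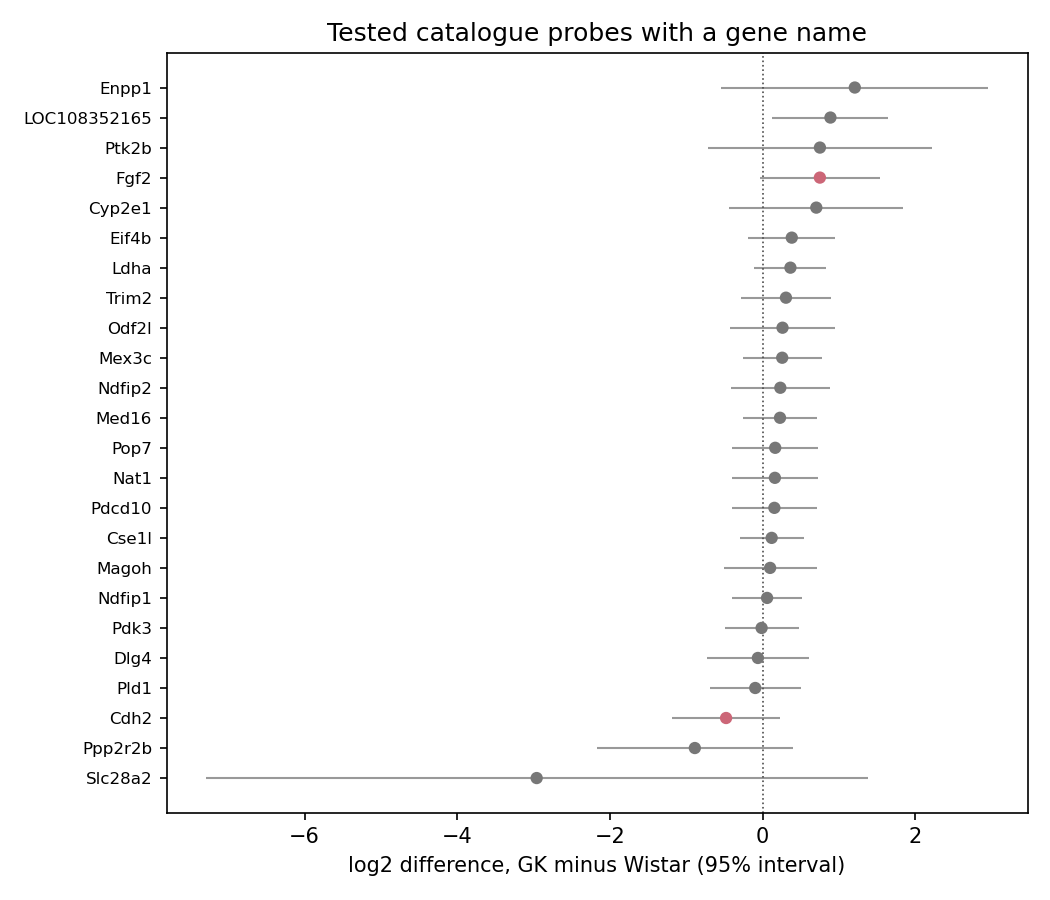
Log2 difference, GK minus Wistar, with its 95% interval (horizontal axis) for the 24 tested genes with a name (1 row each), with Fgf2 and Cdh2 in red. Fgf2 at 0.75 is near the top and Cdh2 at -0.48 near the bottom, and the intervals of both include 0.

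The genes most like Fgf2 over the 6 arrays were picked from 28 other named genes by the root mean square distance between levels centred on each gene's own mean. They were Ldha, a lactate dehydrogenase subunit, at a distance of 0.35 on the log2 scale, Med16, a Mediator subunit, at 0.36, and Mex3c, an RNA-binding ubiquitin ligase, at 0.36. The median distance was 0.56. Ldha was at 3.69, 3.77 and 3.37 in GK replicates 1 to 3 and at 3.37, 3.24 and 3.13 in Wistar replicates 1 to 3. In this gene too, GK replicate 3 was the lowest GK array, just under Wistar replicate 1. The log2 differences were 0.37 for Ldha, 0.23 for Med16 and 0.26 for Mex3c, each smaller than that of Fgf2.

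Those most like Cdh2 were the synaptic scaffold gene Dlg4 at a distance of 0.38, the ubiquitin ligase adaptor Ndfip1 at 0.38 and the nuclear export factor Cse1l at 0.40, and the median distance was again 0.56. Dlg4 was at -3.68, -3.90 and -3.11 in GK replicates 1 to 3 and at -3.84, -3.42 and -3.25 in Wistar replicates 1 to 3. GK replicate 3 was its highest array, and GK replicates 1 and 2 were low, together with Wistar replicate 1. Dlg4 differed by -0.06 between the groups, Ndfip1 by 0.06 and Cse1l by 0.12, and none of the 6 nearest genes of either member passed the test in limma, where their adjusted p lay between 0.507 and 0.953. Fgf2 and Cdh2 were 0.91 apart by the same measure, farther than the median for either. The distance favours genes that vary little, and 6 arrays are few for such a comparison. Among the GK arrays the SD was 0.06 for Ndfip1 and 0.10 for Cse1l, against 0.50 for Cdh2. Both also differed between the groups in the direction opposite to Cdh2, so their short distance shows no shared pattern. Dlg4 hardly differed between the groups, at -0.06, so its distance shows no shared group difference either.

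**Figure D4:**
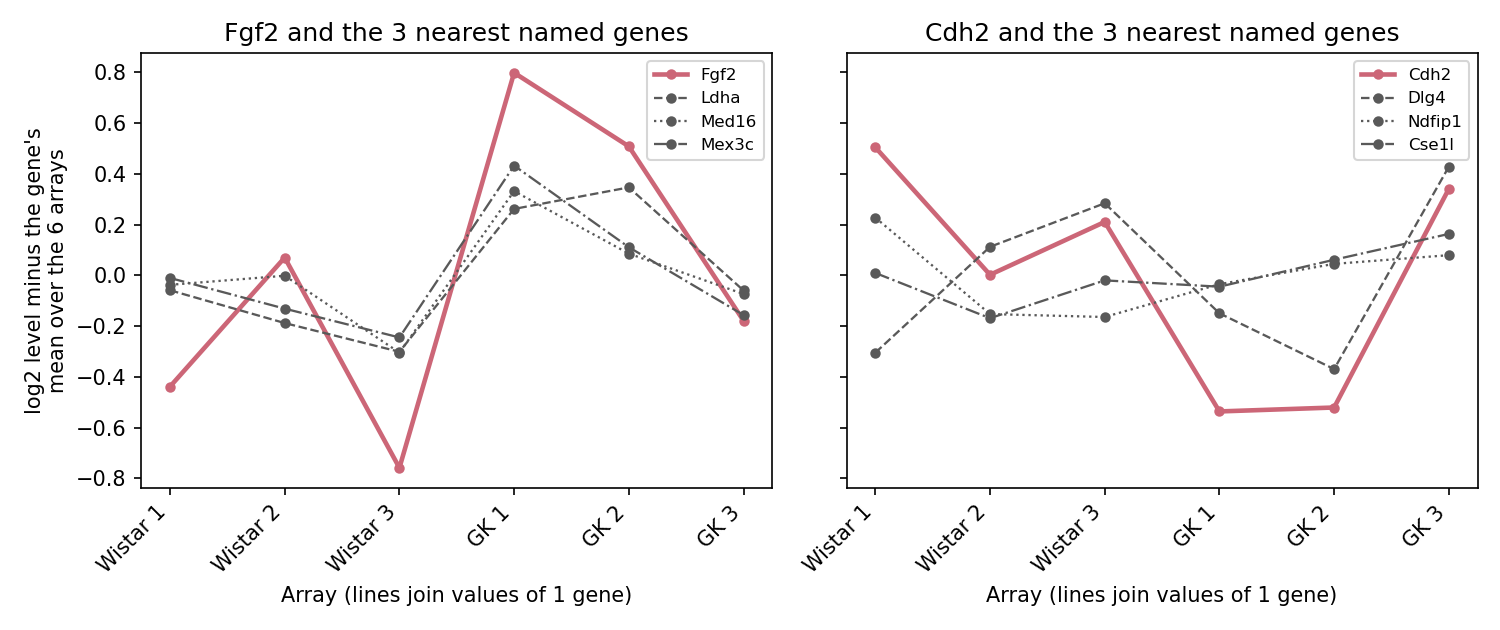
Log2 level minus the gene's mean over the 6 arrays (vertical axis) for Fgf2 and its 3 nearest named genes (left) and Cdh2 and its 3 nearest (right), 1 line per gene. Fgf2 is highest in GK 1 and GK 2 together with Ldha, Med16 and Mex3c, and Cdh2 is lowest in GK 1 and GK 2, where of its nearest genes only Dlg4 dips on both arrays.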

How the data were processed

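RNA of 6 BMMSC samples was labelled with Cy3 and hybridised to 1 array each, per the labels. Groups and replicate numbers come from the sample titles. The deposited scanner values are, per the file headers, linear intensity per spot from Agilent Feature Extraction 11.0.1.1. That software removed the background from the processed signal and did not scale the arrays to each other. The headers name an older rat build, so no coordinate is given. The authors' deposited series table holds log2 values of 38620 probes, normalised in a way not given in the sources used here. It was used for the count of called probes; Fgf2 and Cdh2 were not analysed from it here.

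Outlier-flagged spots were dropped and the log2 signals of a probe's spots averaged. A probe was tested if well above background, by 0.5 or more of its kept spots, on 3 or more of the 6 arrays, with values from 2 or more arrays per group (27920 probes). GK was compared with Wistar in limma 3.58.1 (lmFit and eBayes, R 4.3.3), two-sided; p-values were adjusted by Benjamini-Hochberg over all tested probes, with a threshold of 0.05. The procedure was run on simulated data with planted shifts. The simulated noise was independent with the same SD in both groups, so the run does not cover a deviating array or a slide effect. The alternatives cover scaling, background correction, spots, filters, variance models, pairing, slide and left-out arrays. The array weights were a single value per array, used for all probes and estimated by a gene-by-gene update.

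Fgf2, Cdh2, the gene lists and the tests were chosen with earlier results of these data known. The rule for other named genes took the 3 nearest to each of the pair and list members with a named probe; LOC108352165 was named after its values were seen.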

Additional observations from a re-analysis of the deposited data

How the results depend on the processing

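Fgf2 stayed higher and Cdh2 lower in GK cells under all 19 alternatives run for each, and neither passed at an adjusted p under 0.05 in any of them (limma adjusted p 0.168 to 0.696 for Fgf2 and 0.186 to 0.823 for Cdh2). The unadjusted p of Fgf2 was under 0.05 in 8 of these and that of Cdh2 in 1. Fgf2 lay between 0.41, with normexp, whose offset of 50 is near the probe's own signal, and 1.17 within slide 1 or with the slide as a fixed block. Cdh2 lay between -0.77 and -0.33. A change of the probe filter, the intensity trend and the replicate block left both differences exactly as in the reported fit. The direction under these settings was thus fixed in advance. With array weights the values were 0.50 and -0.38. The weight was lowest for GK replicate 1 (0.43), followed by GK replicate 3 (0.56), and highest for Wistar replicate 2 (4.90). A random block for the slide gave 0.86 and -0.56. Leaving out each array gave 0.54 to 1.03 for Fgf2 and -0.77 to -0.33 for Cdh2. With the replicate number as a block the differences were again 0.75 (adjusted p = 0.319) and -0.48 (adjusted p = 0.598) and 97 probes were called, 57 of them among the 100 of the reported fit. The labels do not say that numbers pair the samples. Deviations of same-numbered arrays correlated at 0.01, 0.10 and 0.42, and not every array correlated best with its own number.

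The count of 100 called probes, 55 higher and 45 lower in GK cells, was 123 with the authors' table (66 higher and 57 lower, 81 of them among the 100), 113 with quantile normalisation, 62 with normexp (26 higher and 36 lower), 64 when a probe had to be well above background on all 6 arrays, 248 with array weights, 7 with the slide as a fixed block, 65 with a random block for it and 23 within slide 1. With single arrays left out it ran from 31 to 664, and the 664 came without GK replicate 3 (284 higher and 380 lower). The cause was not tested. The authors' table was not run for Fgf2 and Cdh2, since no row of it matched their probes. Fgf2 was dimmest in Wistar replicate 3, with a median spot brightness of 3.69 times the median local background. With normexp the Fgf2 difference was 0.41 in place of 0.75.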
